A study of Mus musculus with 12 samples.

Results

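The comparison described here is the acute cold response of brown fat in mice that lack Zbtb7b, a zinc finger protein (also called ThPOK) that commits developing T cells to the CD4 lineage. It rests on 6 of the 12 arrays of the study, chosen by their titles. There were 3 arrays of knockout (KO) brown fat from mice at 22 °C (room temperature) and 3 from KO mice at 4 °C for 4 h (cold). The other 6 arrays, 3 from wild-type (WT) mice at each temperature, are shown where the genotypes are set side by side. They also entered the choice of probe set and the spread behind each standard error and p-value of the main KO comparison. All mice were male, 10 weeks old and fed standard chow, and the labels name no allele, promoter or Cre driver for the knockout. Each array gave log2 signals for 22180 genes, 1 probe set per gene. Array titles speak of biological replicates and a further field speaks of pools, so how many animals stand behind 1 array is unclear, and p-values cover only the variation among these samples. The field with the pools also names liver and a different knockout, whereas on the 6 KO arrays the brown fat gene Ucp1 lay between 11.55 and 12.82 and the liver gene Alb between 2.11 and 2.75.

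Brown adipose tissue makes heat. Cold is sensed by the nervous system, and noradrenaline from sympathetic nerves raises cAMP in the brown adipocyte, which starts lipolysis and a burst of transcription through protein kinase A, the factor CREB and the coactivator PGC-1α. Fatty acids then activate the uncoupling protein UCP1, which lets protons flow back into the mitochondrial matrix without making ATP. In bulk tissue, fewer cells of a type and less RNA per cell cannot be told apart.

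Zbtb7b itself read 3.62, 3.50 and 3.30 on the KO arrays at room temperature and 2.96, 3.38 and 3.01 in the cold, close to the array medians of 2.63 to 2.83. The WT means were 4.58 and 4.42. The difference with cold in KO was -0.35 ± 0.16 (SE, n = 3 per group) and did not pass (limma, adjusted p = 0.154). Each SE given here comes from a spread that limma shared over all groups. It does not measure the scatter of the KO arrays alone. Arrays of the same KO group correlated at r = 0.941 to 0.976 across genes, which are not independent replicates. The median standard deviation of a gene within a group was 0.234 for KO in the cold, 0.159 for KO at room temperature, and 0.118 and 0.162 for WT. KO cold replicate 3 stood apart in several lists: its heat shock genes were lower and its neutrophil and chemokine genes higher than on the other KO cold arrays, as described with those lists. The skeletal muscle list, a sign of neighbouring tissue, had means of 8.59, 7.55 and 3.30 at room temperature and 8.42, 4.39 and 8.18 in the cold, and 0 of its 21 genes passed.

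After 4 h of cold the KO tissue held far more RNA of the thyroid hormone deiodinase Dio2, the retinol dehydrogenase Dhrs9, the lysophospholipid transporter Mfsd2a and the fatty acid elongase Elovl3. It held less RNA of leptin, of the apelin receptor Aplnr and of the lactate receptor Hcar1. Among gene groups, 19 of 22 genes of ribosome assembly, 16 of 21 of amino acid supply and 16 of 24 of heat shock rose, while 11 of 23 of fat synthesis and 8 of 16 of heme and iron handling fell. By the test, 1849 genes were higher (8.34% of all) and 2405 lower (10.8%) at an adjusted p under 0.05 (limma, Benjamini-Hochberg over all genes). At an unadjusted p under 0.05 the count was 6598 in either direction (29.7%). The cold and room-temperature arrays did not overlap for 3200 genes on the higher side (14.4%) and 3811 on the lower side (17.2%). Among the 8475 genes whose signal averaged 5 or more (the brighter genes), 16.7% were higher and 20.6% lower. Most list members are as bright as these, but some lists are mostly dim. In those lists 3 of 26 cell cycle, 8 of 23 chemokine, 1 of 13 T cell, 1 of 12 B cell and 0 of 16 neutrophil genes reached that signal. The split depended on the centring. With each array centred on its median, the median change of all genes moved from 0.0039 to -0.1166, and 1342 genes were higher and 3218 lower. Without KO cold replicate 3 the counts were 1934 and 2386.

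The change with the smallest p was that of Dio2, which makes active thyroid hormone inside brown adipocytes. It read 5.31, 5.0 and 4.27 at room temperature and 11.56, 11.70 and 11.38 in the cold. The cold arrays lay together far above the others, a change of 6.69 ± 0.21 on the log2 scale (103-fold, adjusted p = 1.26e-08). Dhrs9, which oxidises retinol on the way to retinoic acid, had the largest rise among the genes named here. Its signal went from 3.62, 2.77 and 3.59 to 10.84, 10.91 and 9.98 (7.25 ± 0.33, adjusted p = 1.47e-07). No fold is given for it, nor for other genes with a group mean under 4, since such signals lie near the array medians.

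Mfsd2a, which carries lysophospholipids with long polyunsaturated chains, read 4.27, 3.26 and 3.45 at room temperature. In the cold it read 10.17, 10.04 and 10.05, an even rise of 6.43 ± 0.33 (adjusted p = 4.77e-07). Elovl3, which lengthens very long fatty acids and is a classic cold-induced gene of brown fat, went from 4.09, 4.16 and 2.89 to 8.81, 9.51 and 9.29 (5.49 ± 0.32). The tight junction protein gene Cldn1 went from 5.50, 5.05 and 5.99 to 10.95, 10.42 and 10.38, a 33.6-fold rise (5.07 ± 0.33, adjusted p = 2.56e-06). In none of these genes did an array of one group come near the other group. No overlap was required of the genes picked as the largest rises. Acot5, a peroxisomal acyl-CoA thioesterase, rose by 3.42 ± 0.28 from arrays near the median signal. Slc25a34, of the mitochondrial carrier family, rose by 3.32 ± 0.41.

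Several of the other large rises were in genes of signalling at the cell surface and between cells. Placental growth factor (Pgf), a ligand of a VEGF receptor, went from 2.22, 2.21 and 4.16 to 6.77, 6.94 and 8.05. Replicate 3 was the highest Pgf array in both groups, and the groups did not overlap, as the rule required (4.39 ± 0.51, adjusted p = 0.000117). The retinoic acid-induced receptor Gprc5a rose by 4.08 ± 0.33, the potassium channel subunits Kcne4 and Lrrc52 by 3.99 ± 0.30 and 4.74 ± 0.42, and the kinase Sgk2 by 3.81 ± 0.29. Adam12, a membrane metalloprotease, had the tightest arrays of the rises, 5.23, 5.24 and 5.19 against 8.50, 8.61 and 8.42 (9.78-fold, 3.29 ± 0.12, adjusted p = 2.29e-08). Noct, a rhythmic phosphatase, rose 12.1-fold (3.6 ± 0.31), and the β-tubulin Tubb2a 10.3-fold (3.36 ± 0.31). Tmem82 went from 2.11, 1.54 and 2.19 to 6.87, 6.78 and 6.11 (4.64 ± 0.24).

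**Figure D1:**
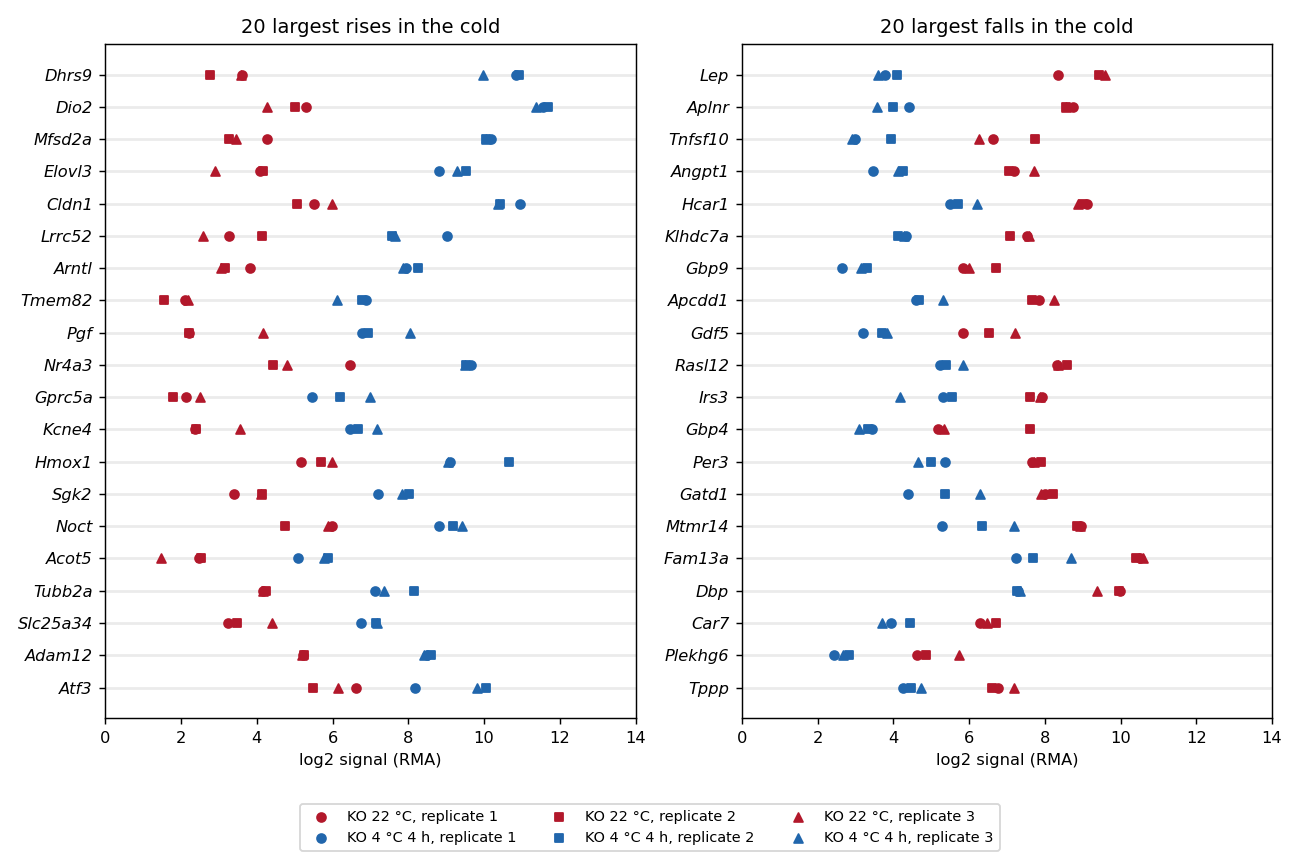
Log2 signal of the 20 genes with the largest rise (left) and the 20 with the largest fall (right) in KO brown fat, with 1 point per array (red 22 °C, blue 4 °C for 4 h, shape by replicate). Red and blue points do not overlap in any row, since the naming rule required it: Dio2 lies at 4.27 to 5.31 in red and at 11.38 to 11.70 in blue, and Lep at 8.34 to 9.60 in red and at 3.59 to 4.09 in blue.

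The largest fall was that of Lep, the gene of leptin, a hormone that adipocytes release in proportion to their fat store. It read 8.34, 9.42 and 9.60 at room temperature and 3.78, 4.09 and 3.59 in the cold. All cold arrays were low, and the difference was -5.30 ± 0.57 (adjusted p = 7.73e-05). Aplnr, the receptor of the vascular peptide apelin, went from 8.74, 8.56 and 8.55 to 4.40, 3.98 and 3.56 (-4.63 ± 0.24, adjusted p = 4.77e-07). Angpt1, the angiopoietin that activates the endothelial receptor Tie2, went from 7.18, 7.05 and 7.72 to 3.46, 4.26 and 4.13 (-3.37 ± 0.28). The weaker of the Angpt1 probe sets fell by 1.75. Hcar1, which senses lactate and restrains lipolysis, went from 9.11, 9.01 and 8.87 to 5.49, 5.71 and 6.21, a 9.13-fold fall (-3.19 ± 0.35, adjusted p = 9.01e-05). For these 4 genes the room-temperature arrays were high throughout and no array of the cold group reached them. The rule for picking the largest falls required this.

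Other large falls included secreted and signalling genes. The death ligand gene Tnfsf10 (TRAIL) fell by 3.61 and the BMP family ligand Gdf5 fell by 2.94 (by 1.53 with a dim further probe set averaged in). The Wnt inhibitor Apcdd1 fell 8.30-fold (-3.05 ± 0.35), the small GTPase Rasl12 7.61-fold (-2.93 ± 0.16) and the rodent insulin receptor substrate Irs3 6.89-fold (-2.78 ± 0.29). Fam13a went from 10.50, 10.41 and 10.58 to 7.24, 7.69 and 8.69 (6.18-fold, adjusted p = 0.00014). The phosphoinositide phosphatase Mtmr14 fell 6.25-fold, Gatd1 6.45-fold, Klhdc7a 8.90-fold, the carbonic anhydrase Car7 5.52-fold and the tubulin-binding Tppp 5.16-fold. In Fam13a, Mtmr14 and Gatd1 KO cold replicate 3 fell least and replicate 1 most. Plekhg6 fell by 2.43. The interferon-induced GTPases Gbp9 and Gbp4 were lower by 3.15 ± 0.23 and 2.75 ± 0.48. Gbp4 read 5.18, 7.61 and 5.33 at room temperature, so that replicate 2 set it apart, and 3.44, 3.33 and 3.09 in the cold.

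Of 20 measured genes of the thermogenic brown adipocyte, 5 rose (25%, beside 16.7% of the brighter genes) and 0 fell. The median was -0.02 beside 0.0039 for all genes. Dio2 and Elovl3 have been described. Ppargc1a, which encodes PGC-1α, went from 9.15, 9.10 and 8.98 to 12.27, 11.90 and 12.06, an 8.0-fold rise (3.0 ± 0.12, adjusted p = 8.99e-08). The arrays of each group lay close together. Ucp1 rose 2.08-fold, from 12.01, 11.61 and 11.55 to 12.80, 12.82 and 12.73 (1.06 ± 0.14, adjusted p = 0.00028), close to the brightest signals measured, which reached 13.37 to 13.52 on single arrays. Slc27a2, a very long chain acyl-CoA synthetase, read 10.13, 9.43 and 9.91 against 10.85, 10.84 and 10.85 (1.02 ± 0.18). The lipid droplet protein gene Cidea (-0.14 ± 0.12) and the brown fat factor Prdm16 (-0.32 ± 0.21) did not pass. The rises were thus in 5 inducible genes and the median gene of the list moved little.

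Among 19 regulators of mitochondrial biogenesis 5 rose (26.3%) and 2 fell (10.5%), beside 16.7% and 20.6% of the brighter genes. The risers were 3 without KO room-temperature replicate 1 or 2 or KO cold replicate 2. Pprc1, a relative of PGC-1α, read 5.0, 4.84 and 5.17 against 6.30, 6.58 and 6.23 (2.58-fold, adjusted p = 4.98e-05). The respiratory factor gene Nrf1 rose by 0.67 ± 0.15. The rRNA methyltransferase Tfb1m was lower by 0.87 ± 0.14 and the deacetylase Sirt3 by 0.53 ± 0.11. Of 41 nuclear genes of the respiratory chain and ATP synthase, 1 rose and 5 fell, or 10 with arrays centred on their median (median -0.20). The fallen 5 all lay near the threshold, and their number was 0 without KO room-temperature replicate 2 or 3 or KO cold replicate 1 and at most 3 in fits without a single WT array. The riser was the complex IV subunit Cox7c, from 6.26, 6.37 and 6.37 to 7.39, 7.35 and 7.57 (2.15-fold, adjusted p = 9.79e-05). In the tricarboxylic acid cycle list of 24 genes the pyruvate dehydrogenase phosphatase Pdp2 rose by 1.16 ± 0.16 and 4 genes fell (16.7%, beside 20.6% of the brighter genes), with a median of -0.28. That 4 became 0 to 2 without KO room-temperature replicate 1, 2 or 3 or KO cold replicate 1 or 2.

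Of 25 measured genes of cAMP feedback and CREB targets 12 rose (48.0%, beside 8.34% of all genes and 16.7% of the brighter ones) and 4 fell, with a median of 0.49. The nuclear receptor Nr4a3 led them, at 6.45, 4.43 and 4.79 at room temperature and 9.65, 9.51 and 9.50 in the cold, a 20.1-fold rise (4.33 ± 0.43, adjusted p = 4.93e-05). Its room-temperature arrays were spread while the cold arrays lay together. Nr4a2 rose 4.42-fold (2.14 ± 0.41) and Atf3, a stress-induced repressor of the ATF family, 9.68-fold, from 6.61, 5.47 and 6.14 to 8.18, 10.06 and 9.80. Crem, whose short form ICER ends CREB signalling, rose 2.23-fold (1.16 ± 0.15, adjusted p = 0.000249).

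Kinases, phosphodiesterases and other proteins around cAMP also moved. The salt-inducible kinases Sik3 and Sik1 rose by 1.33 ± 0.16 and 1.45 ± 0.33, and the CREB coactivator Crtc2 by 0.63 ± 0.14. Pde7b read 7.66, 7.75 and 6.95 against 9.07, 8.75 and 9.31 (3.01-fold), and the anchoring protein gene Akap12 rose 2.97-fold. Pde4a went the other way, from 7.73, 7.51 and 7.57 to 6.49, 6.71 and 6.84 (-0.93 ± 0.14, adjusted p = 0.000717). Rgs2, which shortens signalling by G proteins, was lower 3.6-fold (-1.85 ± 0.31). The other 2 falls were protein kinase A subunits. Prkaca was not called without KO room-temperature replicate 2 or 3, nor Prkar2b without those, KO room-temperature replicate 1 or KO cold replicate 1.

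MAP kinase phosphatases and Sprouty family inhibitors, which end ERK and stress kinase signals, had 6 of 18 members higher and 1 lower (median 0.44). Dusp16 rose 5.38-fold, from 6.37, 6.14 and 6.54 to 8.56, 8.93 and 8.84 (2.43 ± 0.18, adjusted p = 8.48e-06). Spry4 rose 4.88-fold, from 6.80, 6.20 and 6.47 to 8.80, 8.70 and 8.82. Dusp8 rose 6.46-fold, from 4.67, 3.78 and 4.63 to 6.56, 7.40 and 7.20 (2.69 ± 0.29, adjusted p = 7.41e-05). Dusp6 (3.63-fold, or 1.23 in place of 1.86 on the log2 scale with a dim further probe set averaged in), Dusp10 (3.27-fold) and Spred2 (1.74-fold) also rose with no overlap between groups. The 1 fall, Dusp7, had an adjusted p of 0.0472 and, of the 12 fits that left out 1 array, passed in those without KO cold replicate 1 or 2.

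The immediate-early transcription factors, the first genes to answer a stimulus, showed no common shift at 4 h. Of 23 members 5 rose (21.7%) and 1 fell (4.35%), beside 16.7% and 20.6% of the brighter genes. The median was 0.03. The risers were Atf3, the small Maf protein gene Maff, the AP-1 member Fosl2 (1.28 ± 0.20), Csrnp1 (1.90 ± 0.30) and Klf4 (1.66 ± 0.39). Maff read 3.76, 3.78 and 3.88 at room temperature and 5.14, 6.19 and 6.39 in the cold (2.10 ± 0.29, adjusted p = 0.000405). Egr1, which codes for a zinc finger factor, read 8.16, 8.92 and 7.27 against 5.47, 6.50 and 8.43 and did not pass (-1.32, adjusted p = 0.184). Without KO cold replicate 3 it was lower by the test (-2.13, adjusted p = 0.00983). The 1 fall, Egr3, was lost without KO room-temperature replicate 1 or 2 or KO cold replicate 2 or 3. The list means were 6.68, 6.31 and 6.13 at room temperature and 6.02, 6.63 and 7.21 in the cold, highest on KO cold replicate 3.

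The promoters of 3 of these risers and of 1 heat shock gene described further on are shown because they hold a motif of the factor classes that cAMP or misfolded proteins activate. Each is the 200 bases before the annotated start, from RefSeq on GRCm38.p6, written in the direction of the gene, with the motif in capitals. The CREB site searched was TGACGTCA and the heat shock element GAANNTTC. Both read the same on either strand, and each CREB site also contains the short CREB site TGACG. Dio2 lies on the minus strand at chr12:90739039-90739238, Dusp8 on the minus strand at chr7:142095285-142095484, Maff on the plus strand at chr15:79347320-79347519 and Hspb1 on the plus strand at chr5:135887719-135887918.
Dio2: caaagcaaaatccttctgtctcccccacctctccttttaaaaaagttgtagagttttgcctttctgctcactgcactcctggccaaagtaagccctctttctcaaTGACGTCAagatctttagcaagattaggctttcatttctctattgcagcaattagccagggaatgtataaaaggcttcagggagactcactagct
Dusp8: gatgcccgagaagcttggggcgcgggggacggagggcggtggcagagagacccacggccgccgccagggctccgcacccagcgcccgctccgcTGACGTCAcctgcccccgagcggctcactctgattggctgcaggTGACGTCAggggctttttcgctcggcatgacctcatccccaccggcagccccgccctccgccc
Maff: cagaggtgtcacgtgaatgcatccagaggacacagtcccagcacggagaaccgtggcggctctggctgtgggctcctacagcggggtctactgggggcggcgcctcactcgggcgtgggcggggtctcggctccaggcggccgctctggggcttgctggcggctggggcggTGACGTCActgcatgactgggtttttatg
Hspb1: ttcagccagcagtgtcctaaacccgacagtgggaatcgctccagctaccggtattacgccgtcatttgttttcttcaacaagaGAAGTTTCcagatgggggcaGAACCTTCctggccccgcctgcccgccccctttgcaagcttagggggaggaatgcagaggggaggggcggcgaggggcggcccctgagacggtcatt
The Dio2 site runs from 95 to 88 bases before the start. Dusp8 holds a pair, 107 to 100 and 63 to 56 bases before the start, and the Maff site lies 29 to 22 bases before it. In Hspb1 the elements run from 117 to 110 and from 97 to 90. In windows of 250 bases before the start, the CREB site stood in 1.55% of all 32851 promoter entries, the short CREB site in 17.8%, the heat shock element in 6.69% and the E-box CACGTG, the site of clock and MYC family factors, in 6.02%. Counted by gene, the CREB site stood in 2.30% of the 16990 genes tested that had an entry, in 4.54% of the genes higher in the cold (66 of 1454) and in 2.33% of the genes lower (45 of 1930). The short CREB site stood in 23.2%, 35.0% and 27.9% of the same groups. Of the heat shock genes that rose, 4 of the 14 with an entry held the heat shock element (Hspa1a, Hspa1b, Hspb1 and Hspe1), beside 7.02% of genes tested and 6.05% of the genes higher in the cold. Of the risers in the cAMP list, 0 of the 8 with an entry held the CREB site, and the promoters printed here were chosen for holding their motif. These are counts of letters and say nothing about binding.

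The clock genes split by list, with repressors on both sides. The clock is a loop in which BMAL1 (Arntl) with CLOCK or NPAS2 drives the Per, Cry and Nr1d repressors and the D-box factors through E-boxes, and the repressors act back on it. Of 7 activators and genes driven through ROR elements 5 rose and 0 fell (median 1.36). Of 11 repressors and output genes 8 fell and 1 rose (median -0.80). Arntl went from 3.83, 3.15 and 3.04, near the array medians, to 7.93, 8.25 and 7.85 (4.67 ± 0.43, adjusted p = 2.89e-05). Npas2 went from 3.05, 2.99 and 3.28 to 5.54, 4.99 and 5.37 (2.19 ± 0.21) and Clock from 9.15, 9.03 and 8.92 to 10.32, 10.36 and 9.97 (2.27-fold). The leucine zipper repressor gene Nfil3 rose 3.81-fold and Cry1 2.56-fold, both repressors placed in the list with the activators. For all 5 the cold arrays were the high ones.

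On the other side, Per3 fell 6.72-fold, from 7.65, 7.89 and 7.71 to 5.35, 5.0 and 4.66 (-2.75 ± 0.17, adjusted p = 1.9e-06). The D-box factor gene Dbp fell 5.52-fold, from 9.99, 9.95 and 9.37 to 7.30, 7.27 and 7.35, and its relatives Tef and Hlf fell 2.64-fold and 1.74-fold. A further Tef probe set, with a mean of 4.29, stood at -0.18 (adjusted p = 0.681), and the mean of both gave -0.79. Nr1d1, the heme-binding repressor REV-ERBα, was lower 1.68-fold (-0.75 ± 0.18, adjusted p = 0.0109) and the E-box repressor Bhlhe41 2.25-fold. Cry2 and Bhlhe40 passed with adjusted p-values of 0.0269 and 0.0324. Both lost their calls without KO room-temperature replicate 2 or KO cold replicate 1 or 2, as did Cry2 without KO room-temperature replicate 3 and Bhlhe40 without replicate 1. Per1 was the 1 riser, from 9.57, 9.39 and 9.09 to 9.79, 9.97 and 9.84 (adjusted p = 0.0393), and kept its call only without KO room-temperature replicate 1 or WT room-temperature replicate 1 or 2 among the fits that left out 1 array. The labels do not give the time of day of either group.

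**Figure D2:**
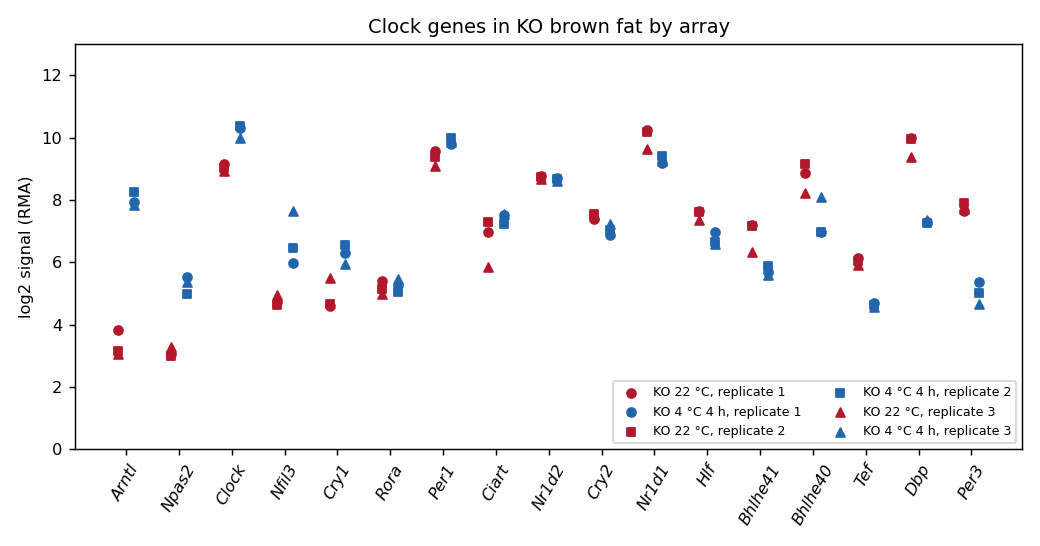
Log2 signal of clock genes in KO brown fat, with 1 point per array (red 22 °C, blue 4 °C for 4 h, shape by replicate). Arntl lies at 3.04 to 3.83 in red and 7.85 to 8.25 in blue, and Per3 at 7.65 to 7.89 in red and 4.66 to 5.35 in blue.

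Heat shock genes encode chaperones that refold proteins and the cochaperones that steer them. Of 24 measured members 16 rose and 0 fell, with a median of 1.06, and between 11 and 17 rose in the fits that left out 1 array. Hsph1, a nucleotide exchange factor of HSP70, went from 4.70, 4.92 and 5.35 to 8.70, 9.13 and 6.69 (9.08-fold, 3.18 ± 0.47, adjusted p = 0.000602). Hsp90aa1, the inducible HSP90, went from 3.99, 3.38 and 3.84 to 6.29, 6.50 and 5.55 (2.38 ± 0.27). The cochaperone gene Bag3 rose 2.91-fold, from 9.77, 9.22 and 9.59 to 11.06, 11.30 and 10.83 (adjusted p = 6.13e-05). KO cold replicate 3 was the lowest cold array in each of these.

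The small heat shock protein gene Hspb1, with its elements shown earlier, read 8.56, 8.58 and 8.28 against 9.79, 9.91 and 9.20 (2.23-fold, 1.16 ± 0.20). Hspa4 rose 2.13-fold, the constitutive HSP70 gene Hspa8 1.83-fold, Dnajb1 2.54-fold, Hspb8 3.02-fold and the HSP90 activator Ahsa1 2.03-fold. For Hspa8 the brightest probe set gave the smallest change (0.87), the other 3 gave 1.79 to 2.11, and the mean of all was 1.72. Hspa1a read 7.38, 6.45 and 7.47 against 10.92, 11.82 and 7.78 (3.08 ± 0.77, adjusted p = 0.0141). Its call was lost without KO room-temperature replicate 2 (0.058) or KO cold replicate 1 (0.0543) or 2 (0.0538), and its near-identical copy Hspa1b makes both values uncertain. The mean of the list was 7.20, 7.08 and 7.31 at room temperature and 8.39, 8.75 and 7.71 in the cold. Replicate 3 was thus higher than every room-temperature array but well below the other cold arrays.

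Of 27 genes of endoplasmic reticulum stress and the ATF4 pathway 10 rose and 2 fell (median 0.32). Dnajb9, a cochaperone of the reticulum, rose 3.35-fold, from 8.88, 8.59 and 8.76 to 10.38, 10.53 and 10.54 (adjusted p = 3.57e-05). Atf4, the factor of the amino acid and stress response, rose 3.35-fold, from 5.46, 5.26 and 5.59 to 6.95, 7.45 and 7.14. Manf, a protein secreted under such stress, rose by 1.21 ± 0.18, and the phosphatase subunit gene Ppp1r15a, which lifts the block of translation, rose 2.62-fold. The chaperone gene Hspa5 (BiP) rose 1.53-fold. Herpud1, which takes part in degradation of reticulum proteins, read 9.06, 8.80 and 9.06 against 7.76, 8.29 and 8.07 and was lower 1.91-fold (adjusted p = 0.00496). Ddit3 (CHOP), a pro-death factor of the pathway, stood at -0.17 ± 0.16 and did not pass. Of 32 proteasome subunits 3 rose and 1 fell (median 0.14), or 0 and 2 with arrays centred on their median, and 0 rose without KO room-temperature replicate 2 or KO cold replicate 2 while 5 rose without KO cold replicate 1.

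Genes that build ribosomes had the largest share of risers among the lists. Of 22 measured members 19 rose (86.4%) and 0 fell, with a median of 1.08. Rrp12, which takes part in export of ribosomal subunits, rose 5.31-fold, from 4.21, 3.71 and 4.24 to 6.01, 6.53 and 6.86 (2.41 ± 0.22, adjusted p = 2.97e-05). The nucleolar GTPase gene Gnl3 rose 4.08-fold, the rRNA methyltransferase gene Nop2 3.97-fold and the helicase gene Ddx21 3.33-fold. Ddx21 read 8.05, 7.64 and 8.19 at room temperature and 9.45, 9.91 and 9.71 in the cold. The large subunit of RNA polymerase I, Polr1a, rose 2.23-fold, and its partner Polr1b 1.80-fold. Nop56 (2.41-fold) and Nop58 (3.20-fold), core proteins of the particles that methylate rRNA, rose as well.

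Amino acid supply moved alongside. Of 21 genes of amino acid synthesis, transport and tRNA charging 16 rose and 1 fell (median 0.94). Slc3a2, the heavy chain of the large neutral amino acid exchanger, rose 4.03-fold, from 9.87, 9.89 and 10.10 to 11.94, 12.05 and 11.91 (2.01 ± 0.13, adjusted p = 2.56e-06). Its light chain Slc7a5 rose 3.76-fold, the cationic amino acid carrier Slc7a1 4.92-fold and the glutamine carrier Slc38a2 2.88-fold. Mthfd2, a mitochondrial enzyme of one-carbon metabolism, went from 4.28, 4.05 and 3.92 to 6.31, 7.0 and 5.95 (5.05-fold). The tRNA synthetase genes Iars (2.54-fold), Cars (2.45-fold), Gars (1.92-fold), Nars (2.06-fold), Eprs (1.78-fold) and Yars (2.08-fold) rose, all with no overlap between groups. The serine synthesis gene Psat1 rose by 1.35 ± 0.28 and asparagine synthetase Asns 1.77-fold. The 1 fall, Psph (adjusted p = 0.0415), kept its call only without KO cold replicate 2, WT cold replicate 2 or WT room-temperature replicate 1 or 2 among the 12 fits that left out 1 array.

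**Figure D3:**
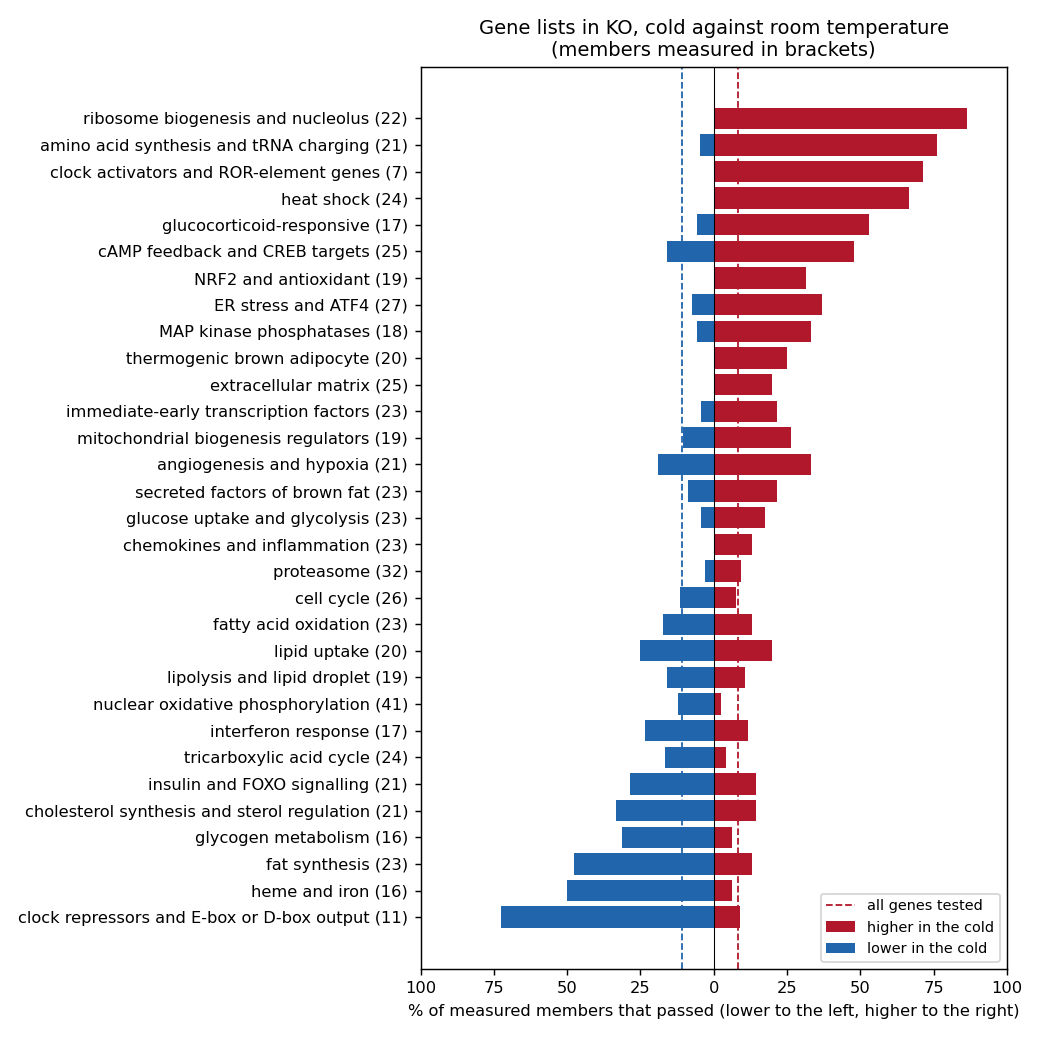
Share of the measured members of each gene list that were higher (red, to the right) or lower (blue, to the left) in the cold in KO brown fat, with the number measured in brackets. Dashed lines mark the shares of all genes, 8.34% higher and 10.8% lower (16.7% and 20.6% of genes whose signal averaged 5 or more), and ribosome biogenesis, with 19 of 22 higher, and the clock repressors and output genes, with 8 of 11 lower, stand at the ends.

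Of 23 measured members of the fat synthesis list 11 were lower, 3 higher and 9 neither (8 lower without KO room-temperature replicate 2 or KO cold replicate 1), with a median of -0.65, the lowest after the clock repressors among the lists that are not cell type markers. Srebf1, the factor that drives these enzymes, went from 7.67, 8.21 and 7.14 to 5.42, 5.87 and 5.49 (4.23-fold lower, -2.08 ± 0.25, adjusted p = 0.000145). Acaca, the acetyl-CoA carboxylase that commits carbon to fatty acids, went from 10.51, 10.81 and 9.67 to 7.77, 8.24 and 8.25 (4.75-fold lower). Fatty acid synthase (Fasn) was 2.75-fold lower, from 12.54, 12.75 and 11.85 to 10.72, 11.06 and 10.99, and the ATP citrate lyase Acly 2.48-fold. In each of these the lowest room-temperature array was replicate 3, and it still lay above every cold array. The carbohydrate-sensing factor gene Mlxipl was 2.23-fold and the lipogenesis regulator Thrsp 2.34-fold lower.

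The last step of triglyceride synthesis split between its enzymes. Dgat2 was lower, from 12.23, 12.24 and 12.16 to 10.53, 11.20 and 11.53 (2.18-fold, adjusted p = 0.00302). Dgat1, an unrelated enzyme for the same reaction, was higher, from 10.81, 10.94 and 10.48 to 11.23, 11.64 and 11.67 (1.71-fold, adjusted p = 0.00412). The acyltransferase gene Gpam, which starts glycerolipid synthesis, rose 1.48-fold. Of 21 sterol genes 7 fell and 3 rose (median -0.17). The last enzyme of cholesterol synthesis, Dhcr7, was 2.20-fold lower (-1.13 ± 0.15), the squalene synthase Fdft1 1.98-fold and the cholesterol exporter Abca1 2.03-fold, while Hmgcs1, at the entry of the pathway, rose 1.98-fold (0.98 ± 0.19).

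Single genes of lipid release and uptake changed both ways. The shares of these lists that passed lay near or below those of the brighter genes (16.7% higher and 20.6% lower). Abhd5, the coactivator of the lipase ATGL, rose 1.97-fold, from 9.25, 9.43 and 9.20 to 10.29, 10.45 and 10.08 (adjusted p = 0.000237). Among the lipid droplet coat proteins Plin2 rose 2.74-fold and Plin3 fell 4.09-fold, from 7.40, 8.11 and 7.96 to 5.35, 6.07 and 5.96. The hormone-sensitive lipase Lipe stood at -0.37 ± 0.18 and did not pass. In all, 2 of 19 lipolysis genes rose (10.5%) and 3 fell (15.8%), with 5 rising without KO cold replicate 1. Of 20 lipid uptake genes 4 rose (20%) and 5 fell (25%). Only 1 or 2 fell without KO room-temperature replicate 1 or 2 or KO cold replicate 1 or 2. Besides Mfsd2a and Slc27a2, the acyl-CoA synthetase Acsl4 and the lipoprotein lipase regulator Angptl8 rose 1.85-fold and 1.91-fold, and the receptor Lrp1 was 2.39-fold lower. Lipoprotein lipase (Lpl), at 12.30, 12.27 and 12.26 against 12.50, 12.65 and 12.57, did not overlap between groups but did not pass (0.30 ± 0.11, adjusted p = 0.0705). With both Lpl probe sets averaged it was higher by the test (0.52, adjusted p = 0.00463). Of 23 fatty acid oxidation genes 3 rose (13%) and 4 fell (17.4%), or 1 and 6 with arrays centred on their median. The acyl-CoA thioesterase Acot1 (2.54-fold higher) and the carnitine transferase Cpt2 (1.47-fold lower) passed in each of the 12 fits that left out 1 array, although Acot1 did not without KO cold replicates 1 and 3 together (adjusted p = 0.0619). In those 12 fits the list had 1 to 3 genes higher and 1 to 5 lower, with 5 lower without KO cold replicate 3.

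Glucose and glycogen genes changed in a few members. The glucose carrier gene Slc2a1 rose 3.02-fold, from 7.31, 7.39 and 7.42 to 8.61, 8.89 and 9.40 (adjusted p = 0.000105), while the insulin-responsive carrier gene Slc2a4 fell 1.68-fold, from 9.95, 10.13 and 10.01 to 9.03, 9.35 and 9.47. The platelet-type phosphofructokinase Pfkp rose 2.45-fold. Of 23 glucose genes 4 rose (17.4%) and 1 fell (4.35%), beside 16.7% and 20.6% of the brighter genes. The count of risers was 2 without KO room-temperature replicate 2, and 3 fell without KO cold replicate 3. Of 16 glycogen genes 1 rose (6.25%) and 5 fell (31.2%), with a median of -0.25. The riser was Gys2, the glycogen synthase best known from liver, from 4.57, 5.39 and 4.74 to 7.21, 7.20 and 6.47 (4.17-fold, 2.06 ± 0.26, adjusted p = 0.000185). The phosphorylases Pygb and Pygl were 2.18-fold and 2.57-fold lower. Ppp1r3b, which targets a phosphatase to glycogen, was 4.06-fold lower, from 7.79, 8.46 and 8.35 to 6.54, 6.36 and 5.64, and its relative Ppp1r3d 2.44-fold. A dimmer Ppp1r3b probe set stood at -0.55 and did not pass (adjusted p = 0.155), and the mean of both gave -1.29 in place of -2.02.

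In insulin and FOXO signalling 3 of 21 genes rose (14.3%) and 6 fell (28.6%), with a median of -0.05. Of the brighter genes 16.7% rose and 20.6% fell. The insulin receptor substrate Irs2 rose 2.54-fold, from 9.57, 8.70 and 8.82 to 10.40, 10.51 and 10.22 (adjusted p = 0.000712). Downstream of it, the PI3 kinase subunit Pik3r1 fell 2.99-fold, from 10.69, 10.74 and 10.70 to 9.50, 9.12 and 8.78, and the kinase Akt2 2.22-fold. The sestrin genes Sesn1 and Sesn3 were lower 2.29-fold and 2.14-fold, whereas Sesn2, counted in the ATF4 list, rose 2.67-fold. Socs2, a feedback inhibitor of growth hormone signalling, rose 2.81-fold, from 7.33, 6.79 and 7.07 to 8.30, 8.56 and 8.80. Of 17 genes that answer glucocorticoids 9 rose and 1 fell (median 0.60). The risers were 3 without KO room-temperature replicate 3 or KO cold replicate 2, 5 without KO room-temperature replicate 1 or 2 or KO cold replicate 3, and 4 with arrays centred on their median. The kinase Sgk1 (1.33 ± 0.33) and the zinc finger gene Zbtb16, a relative of Zbtb7b (1.33 ± 0.31), kept their calls when any single array was left out.

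Hmox1, which breaks down heme, rose 15.9-fold, from 5.16, 5.70 and 5.98 to 9.11, 10.65 and 9.04 (3.99 ± 0.43, adjusted p = 7.73e-05). It was the 1 riser among 16 heme and iron genes, of which 8 fell (median -0.51). The iron exporter Slc40a1 was 5.02-fold lower, from 7.49, 7.14 and 7.65 to 5.38, 5.66 and 4.26 (-2.33 ± 0.30). The transferrin receptor Tfrc was 2.36-fold lower, from 8.38, 9.31 and 8.51 to 7.43, 7.39 and 7.66, and the iron-regulatory Aco1 2.20-fold. Along the heme pathway Alad and Urod fell 1.63-fold and 1.64-fold, and Cpox fell by 1.04 on the log2 scale. Of 19 genes of the NRF2 and antioxidant response 6 rose, Hmox1 included, and 0 fell by this test. Srxn1, which restores peroxiredoxins, rose 2.67-fold and the glutathione synthesis gene Gclc 1.77-fold.

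Single vessel genes moved in opposite directions. Of 21 genes of angiogenesis and hypoxia 7 rose (33.3%) and 4 fell (19%), or 5 and 6 with arrays centred on their median. Of the brighter genes 16.7% rose and 20.6% fell, so the share of falls lay near theirs. The vasoconstrictor gene Edn1 rose 4.10-fold, from 4.04, 3.85 and 4.16 to 5.73, 6.04 and 6.37 (adjusted p = 2.3e-05). Angpt2, the antagonist of Angpt1, rose 2.96-fold, from 4.86, 4.63 and 4.95 to 6.01, 6.70 and 6.43, while Angpt1 and their receptor Tek were lower (Tek 2.53-fold, from 8.19, 8.29 and 8.55 to 7.35, 7.0 and 6.66). The oxygen-sensing hydroxylase Egln3 rose 3.94-fold and its relative Egln1 was 1.49-fold lower. Vegfa, the main vascular growth factor, stood at 0.36 ± 0.13 and did not pass (adjusted p = 0.085).

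Endothelial markers did not shift as 1 group. Of 17, 7 rose (41.2%) and 4 fell (23.5%), beside 16.7% and 20.6% of the brighter genes. With arrays centred on their median 4 rose and 4 fell. The median was 0.26. The junction protein Pecam1 rose 1.61-fold, from 9.22, 9.02 and 9.42 to 10.04, 9.89 and 9.80, and Eng 1.85-fold. Tie1 was lower 1.5-fold. The risers numbered 4 without KO room-temperature replicate 1 or 2 or KO cold replicate 2 or 3, and the falls 2 without KO room-temperature replicate 3. Of 15 mural and smooth muscle markers 5 fell (33.3%) and 1 rose (6.67%), with a median of -0.34. The pericyte proteoglycan Cspg4 was 2.70-fold lower, from 6.16, 6.22 and 6.23 to 4.59, 4.95 and 4.77 (adjusted p = 0.000106), the smooth muscle myosin Myh11 2.08-fold and the receptor Notch3 2.43-fold. Cnn1, a calponin of smooth muscle, went the other way, from 6.27, 6.4 and 6.11 to 9.05, 8.80 and 7.45 (4.52-fold). List means of the mural markers were 7.55, 7.45 and 7.45 at room temperature and 7.24, 7.32 and 7.14 in the cold.

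Immune genes changed in small numbers. Of 23 chemokine and inflammation genes, most of them dim, 3 rose (13%, beside 8.34% of all genes) and 0 fell. In this list 6 were higher without KO cold replicate 1 and 2 lower without KO cold replicate 3. Cxcl10 went from 5.31, 5.89 and 4.70 to 6.47, 9.05 and 8.23 (6.14-fold, adjusted p = 0.00381). The B cell attractant Cxcl13 went from 7.48, 6.98 and 8.23 to 9.91, 9.87 and 9.57 (4.65-fold, adjusted p = 0.000108). The neutrophil attractant Cxcl2 read 3.30, 2.69 and 2.41 against 3.41, 3.48 and 6.07, with replicate 3 alone high, and did not pass. Chemokine list means were 4.45, 4.69 and 4.37 at room temperature and 4.40, 4.90 and 5.72 in the cold.

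Of the interferon-induced genes 2 of 17 rose (11.8%) and 4 fell (23.5%), with a median of -0.23. These shares lay near those of the brighter genes (16.7% and 20.6%). The GTPase gene Gbp7 read 7.82, 9.08 and 7.53 against 6.37, 6.58 and 6.36 (3.26-fold lower) and the antiviral gene Rsad2 7.60, 8.26 and 7.17 against 6.63, 6.72 and 6.48 (2.09-fold lower). KO room-temperature replicate 2 was the highest array of both, as it was of Gbp4. The RNA sensor gene Oas2 rose 2.36-fold, so the family did not move as 1. The list means were 5.50, 6.14 and 5.46 at room temperature and 5.32, 5.79 and 5.47 in the cold.

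Of 17 macrophage markers 4 rose (23.5%) and 1 fell (5.88%), beside 16.7% and 20.6% of the brighter genes. The lysosomal Cd68 rose 1.99-fold, from 7.07, 7.30 and 6.91 to 7.84, 7.90 and 8.51, the integrin Itgam 1.94-fold and the mannose receptor Mrc1 1.80-fold, while the growth factor receptor Csf1r fell 1.70-fold, from 7.10, 7.21 and 7.09 to 6.16, 6.36 and 6.61. Neutrophil marker means were 2.45, 2.74 and 2.44 at room temperature and 2.32, 2.68 and 4.16 in the cold, high on KO cold replicate 3 alone. The granule gene S100a8 read 3.89 there and 1.18 to 1.79 on the other KO arrays. Of the 16 neutrophil markers 2 passed as higher, Lcn2 and Il1r2, and 0 did without KO room-temperature replicate 2 or 3 or with arrays centred on their median. Among the 12 fits that left out 1 array, Lcn2 passed only without KO cold replicate 1 or 3, WT cold replicate 1 or WT room-temperature replicate 2, and Il1r2 failed without KO cold replicate 2 or 3 or KO room-temperature replicate 2 or 3. Lcn2 read 4.44, 4.71 and 4.51 against 5.03, 5.97 and 8.09. The part of these cells in the other results was not tested.

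Among 13 T cell markers 1 fell, Cd8a, from 3.66, 3.71 and 3.19 to 2.96, 2.69 and 2.87, all near the array medians, and it did not pass without KO room-temperature replicate 2 (adjusted p = 0.0527). B cell, Schwann cell and fibroblast markers had at most 2 members past the test in either direction, of 12, 12 and 11. Of 14 white adipocyte markers Lep was the 1 that fell, and of 19 hepatocyte markers 0 passed. Of 26 cell cycle genes, most of them dim, 2 rose (7.69%) and 3 fell (11.5%), beside 8.34% and 10.8% of all genes. The cell cycle inhibitor Cdkn1a (p21) rose 4.27-fold, from 10.59, 10.27 and 10.62 to 12.50, 12.66 and 12.60 (adjusted p = 9.61e-05), and Cdk1 was lower by 1.17 on the log2 scale, from 4.26, 4.41 and 4.31 to 2.83, 3.45 and 3.19. Of 25 extracellular matrix genes 5 rose (20%, beside 16.7% of the brighter genes) and 0 fell. In this list 2 or 3 rose without KO room-temperature replicate 2 or 3, and 2 fell without KO cold replicate 2. Elastin (Eln) rose 2.36-fold and the basement membrane collagen Col4a2 1.92-fold. Among 23 genes of secreted factors 5 rose (21.7%, beside 16.7% of the brighter genes) and 2 fell (8.7%, beside 20.6%), Lep first. The retinol carrier Rbp4 rose 2.02-fold, from 8.30, 8.44 and 7.61 to 9.24, 9.04 and 9.12. The count of risers was 2 without KO room-temperature replicate 1 and 3 without KO cold replicate 3, and 4 fell without the latter.

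**Figure D4:**
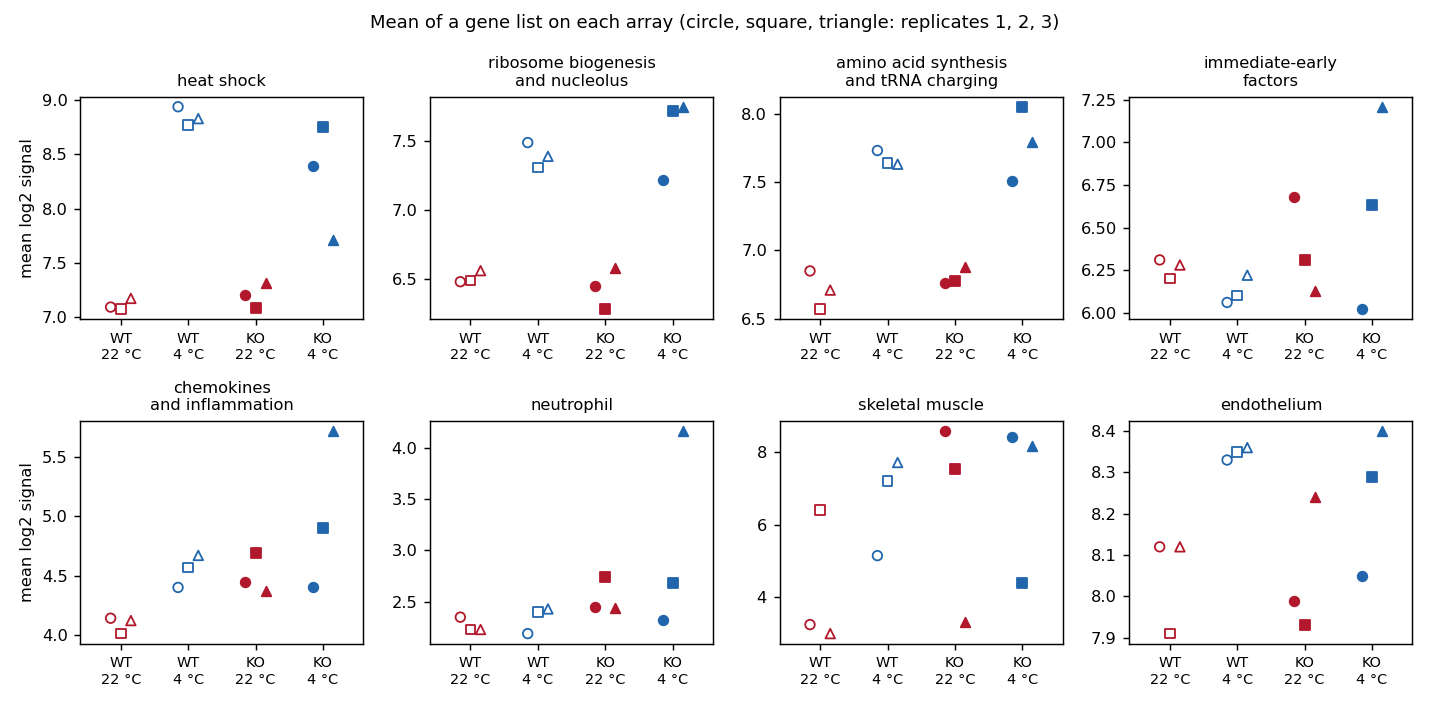
Mean log2 signal of 8 gene lists on each of the 12 arrays (open symbols WT, filled symbols KO, red 22 °C, blue 4 °C, shape by replicate). Heat shock means of KO in the cold are 8.39, 8.75 and 7.71, and the neutrophil mean stands at 4.16 on KO cold replicate 3 against 2.32 to 2.74 on the other KO arrays.

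Set beside WT, most of the KO response pointed the same way. In WT 2082 genes were higher (9.39%) and 1770 lower (7.98%) by the same test. The changes in KO and WT share no arrays, but both tests used the same spread per gene, taken over all 12 arrays. The calls are therefore not independent. Of the genes higher in KO 1256 were also higher in WT, 67.9% of the KO list and 60.3% of the WT list. Of the genes lower in KO 1241 were lower in WT, 51.6% and 70.1%. Of the 1752 genes that passed in KO alone, 1504 had the same sign in WT. Across the 8475 genes whose signal averaged 5 or more, the changes in KO and WT correlated at r = 0.825, and genes are not independent replicates. The skeletal muscle list, a sign of neighbouring tissue, had a median change of 2.77 in WT and 0.48 in KO. Its WT means were 3.23, 6.41 and 2.98 at room temperature and 5.14, 7.21 and 7.72 in the cold. Its arrays were widely spread within groups, and 0 of its 21 genes passed in either genotype. Opposite calls were made for 5 genes, named here after their values were seen: Mir99a, Olfr1502 and Olfr519 were higher in KO and lower in WT, and Cd8a and Gm5144 the reverse, all except Gm5144 with a group mean under 3. The Gm5144 call in KO was lost without KO room-temperature replicate 2 or 3 or KO cold replicate 2 or 3. The heat shock list had 22 of 24 genes higher in WT with a median of 1.71, and the proteasome list 12 of 32 with 0.39. The median interaction, KO minus WT, was -0.56 for heat shock and -0.26 for the proteasome, with 0 members of either past the interaction test. It was -0.01 for all genes and -0.11 for the brighter genes. Over the lists it ran from -2.38 (skeletal muscle) to 0.55 (neutrophil markers). Heat shock means in the cold were 8.39, 8.75 and 7.71 in KO, lowest on replicate 3, and 8.94, 8.77 and 8.83 in WT.

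The difference in cold response was tested gene by gene as the interaction of genotype and temperature. It passed for 6 genes (0.0271%), and 2324 genes had an unadjusted p under 0.05 (10.5%). The number was 20 without KO cold replicate 1, 12 without KO cold replicate 3, 11 without KO room-temperature replicate 1 and 3 without WT cold replicate 1, 2 or 3. Dio2 rose more in KO, by 3.41 ± 0.30 (adjusted p = 0.0019), from a lower start. In WT it read 8.30, 8.47 and 8.46 at room temperature and 11.66, 11.66 and 11.75 in the cold, so the cold arrays of both genotypes lay within 11.38 to 11.75. A weaker probe set that also maps to Dio2, with a mean of 2.32, did not show the rise (-0.70, adjusted p = 0.102), and with both averaged the Dio2 difference between genotypes was 1.04 and did not pass (adjusted p = 0.219).

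Aloxe3, an epidermal-type lipoxygenase, read 2.18, 2.24 and 2.10 in KO at room temperature and 4.75, 5.0 and 5.22 in the cold, against 2.34, 2.51 and 2.41 and then 2.92, 3.37 and 2.88 in WT. The difference of the changes was 2.18 ± 0.22 (adjusted p = 0.00475). Socs2 went the other way: it rose by 1.49 in KO and by 3.36 in WT, from 6.16, 6.43 and 6.59 to 9.89, 9.67 and 9.71, a difference of -1.87 ± 0.25 (adjusted p = 0.0301). Tmem82 (2.78 ± 0.34, adjusted p = 0.0136) and Adam12 (1.17 ± 0.17, adjusted p = 0.0453) rose more in KO, both from a lower start. Tmem82 means were 1.94 in KO and 3.21 in WT at room temperature, and 6.58 and 5.08 in the cold. Adam12 means were 5.22 in KO and 6.55 in WT at room temperature, and 8.51 and 8.67 in the cold. Calls in the interaction were less steady than the cold changes themselves. Tmem82 did not pass in 4, Socs2 in 7 and Adam12 in 10 of 12 fits with 1 array removed. The Tmem82 losses came without WT cold replicate 1, 2 or 3 or WT room-temperature replicate 1 (adjusted p of 0.0507 to 0.058). For Socs2 they came without those 4 arrays, WT room-temperature replicate 2, KO cold replicate 2 or KO room-temperature replicate 3 (up to 0.123), and Adam12 kept its call without KO cold replicate 1 or 3. The sixth gene, the olfactory receptor Olfr519, lay between 0.89 and 2.49 on all 12 arrays, at or below the array medians.

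Genes with large cold changes that did not pass the interaction include Ppargc1a, which rose by 3.0 in KO and 2.32 in WT, and Arntl, by 4.67 and 4.76. Hmox1 rose by 3.99 and 4.94, Mfsd2a by 6.43 and 5.68 and Elovl3 by 5.49 and 4.81, with differences within about 1 on the log2 scale. Ucp1 rose by 1.06 in KO and stood at 0.36 in WT, and the difference of 0.69 did not pass (adjusted p = 0.282). Lep fell by 5.30 in KO and 2.23 in WT, with a wide error on the difference (-3.07 ± 0.81, adjusted p = 0.248). Gys2 rose by 2.06 in KO and stood at 0.18 in WT. A p that misses the threshold does not show that the genotypes acted alike.

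**Figure D5:**
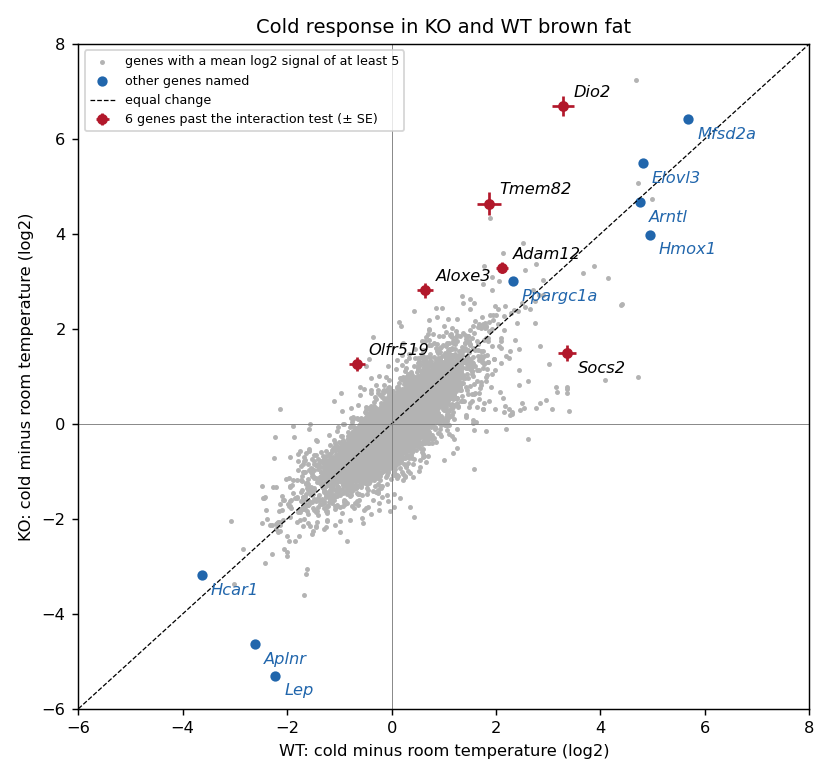
Cold minus room temperature on the log2 scale in WT (x) and KO (y) for genes whose signal averaged 5 or more (grey), with the 6 genes past the interaction test in red (bars ± SE), other named genes in blue and equal change as a dashed line. Dio2 lies at 3.28 in WT and 6.69 in KO, and Socs2 at 3.36 and 1.49.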

How the data were processed

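The deposited values are log2 signals of 41345 probe sets on 12 arrays, made by the authors with oligo and RMA (background correction, quantile normalization and probe set summary). limma is also named per the submitters' processing notes, and versions are not given in the sources used here. The log2 scale was read from the range of the values. Biotinylated cDNA came from total RNA, per the labels' protocols. GEO's platform annotation gave 1 symbol to 23521 probe sets, several to 1814 and none to 16010. Where a gene had several probe sets (1082 genes), the brightest on average stood for it, giving 22180 genes. Dim genes were not removed.

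In R 4.3.3, limma 3.58.1 fitted 4 group means over the 12 arrays (lmFit and eBayes), and a gene passed at a two-sided Benjamini-Hochberg adjusted p under 0.05 over all genes. The code was tested on simulated data. With 3 arrays per group, the number of arrays limits the precision. Replicate numbers were not taken as pairs. The comparison, the 43 lists (790 distinct genes measured) and the tests were chosen with earlier results of these data known. Besides Zbtb7b and list members, the genes named were the 20 largest rises and 20 largest falls that passed, did not overlap between groups and had a mean of at least 5 in the higher group, and up to 12 interaction genes each way, leaving out predicted genes, small RNAs, pseudogenes and odorant and vomeronasal receptors. Genes outside this rule were named after their values were seen, among them Olfr519, Olfr1502, Mir99a and Gm5144. Alternatives changed the probe set rule, signal filter, normalization, spread model, threshold, arrays fitted, replicate block and a muscle covariate. Promoters came from RefSeq on GRCm38.p6 (32851 entries).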

Additional observations from a re-analysis of the deposited data

Results flagged for a closer look

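For 6 genes the cold response differed between KO and WT by the test of the difference itself (limma interaction term, Benjamini-Hochberg adjusted over all genes). Each value is the KO change minus the WT change on the log2 scale, from 3 arrays in each of the 4 groups. The difference was 3.41 for Dio2, the deiodinase that activates thyroid hormone (adjusted p = 0.00190), 2.18 for the lipoxygenase Aloxe3 (adjusted p = 0.00475) and 2.78 for Tmem82 (adjusted p = 0.0136). It was 1.17 for the metalloproteinase Adam12 (adjusted p = 0.0453) and -1.87 for Socs2, an inhibitor of cytokine signalling (adjusted p = 0.0301). For Olfr519, a dim odorant receptor gene whose group means were all under 3, it was 1.93 (adjusted p = 0.00483). In Dio2 the groups stood apart at room temperature, 4.86 ± 0.54 in KO against 8.41 ± 0.10 in WT (SD, n = 3 each), and met in the cold at 11.55 ± 0.16 and 11.69 ± 0.06.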

How the results depend on the processing

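Of the named genes 203 passed in the KO cold contrast. None of these 203 reversed under any of the 25 alternatives (175 had a value under the signal filter), and 189 passed in all 12 fits that left out 1 array. Calls were lost more often. When a change of at least 1.5-fold was required, 100 of the 203 kept their call and 103 lost it. With only the 6 KO arrays 185 kept it and 18 lost it. Many alternatives could not reverse a change. Leaving out a WT array, the signal filter, the trended spread, the replicate block, the 1.5-fold test and the KO-only fit alter only the spread or the test. With every probe set on its own, the brightest again stood for the gene. The values that reversed belonged to a pair of genes that did not pass. S100a8 changed by 0.62 (limma, adjusted p = 0.452), by -0.18 without KO_cold replicate 3 (range -0.18 to 1.18 over the fits that left out 1 array) and by -0.18 without replicate 3 of both KO groups. Alb changed by -0.08 (adjusted p = 0.879), by 0.12 without KO_RT replicate 3 (range -0.20 to 0.12) and by 0.11 without replicate 3 of both KO groups.

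The 1849 higher and 2405 lower genes became 320 and 325 at a change of at least 1.5-fold and 1173 and 1564 with only the 6 KO arrays. Without KO_cold replicates 1 and 3 together they were 1609 and 1309, so the split turned to 55.1% higher. Leaving out 1 array gave 1372 to 1934 higher and 1828 to 2386 lower. With arrays centred on their median they were 1342 and 3218, or 29.4% higher against 43.5%, and the median of all genes moved to -0.12.

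The count of 6 genes whose response differed between the genotypes was the least stable. It was 3 when all probe sets of a gene were averaged, 26 at a mean signal of at least 5 (8475 genes tested), 17 with arrays centred on their median, 19 with a trended and robust spread, 22 with array weights, 12 with the skeletal muscle covariate, 1 at 1.5-fold, and 3 to 20 over the fits that left out 1 array (20 without KO_cold replicate 1, 12 without KO_cold replicate 3, 11 without KO_RT replicate 1 and 3 without any 1 of the WT_cold arrays). The cause was not tested. With only the 6 KO arrays this difference was not run, since it needs all 12.

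With the replicate block the counts were 1759 higher, 2313 lower and 7 that differed between genotypes, and the interaction calls of Socs2 (limma, adjusted p = 0.064) and Adam12 (0.0973) were lost. The deviations of same-numbered KO arrays correlated at 0.333, -0.22 and -0.148 over 8475 genes, and not every array correlated best with its own number, so the numbers were not taken as pairs.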

Other observations

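Several genes lay just outside the threshold for a difference in cold response between KO and WT. The heat shock co-chaperone Dnaja4 had a KO change minus WT change of -2.06 on the log2 scale (limma, adjusted p = 0.0562) and the apelin receptor Aplnr one of -2.01 (adjusted p = 0.0622), having fallen in both genotypes by 4.63 and 2.62. Tectb (-1.67, adjusted p = 0.0511), the aspartate aminotransferase Got1 (-1.20, adjusted p = 0.0548) and the fatty acid elongase Elovl4 (-2.84, adjusted p = 0.0570) lay there too and were picked with their values in view. Positive differences, also picked in view, were 1.55 for Tspan18 (adjusted p = 0.061), which fell less in KO, and 2.56 for Dhrs9 (adjusted p = 0.0766). Dhrs9 rose by 7.25 in KO and by 4.68 in WT, from means of 3.33 and 6.35 to 10.57 and 11.03. None of these genes passed.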
